A study of Mus musculus with 550 samples.

Results

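The genes described here are the mouse zinc finger genes with symbols from Zfp900 to Zfp999, together with Rex2, Zfp600, Zfp640, Zfp729a and Zfp729b. They were chosen by symbol, 66 by the Zfp900 series and 5 by name, and make up 71 of the 55228 gene names of the count table. The symbol itself uses no measured value, but the family and the 5 added names were selected with earlier results of these same cells known, so how the genes vary together is described below and not tested. Of the 71 genes, 66 had a read in at least 1 of the 550 cells, and 48 had a read in at least 20% of the 486 kept cells. At that limit, Rex2 lay just inside with 20.2% of cells and Zfp953 just outside with 19.1%.

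The cells came from embryoid bodies (EBs), aggregates in which E14 mouse embryonic stem cells (a 129/Ola line) differentiate in medium without LIF. They were wild type (WT), homozygous Dnmt3a knockout (3AKO) or homozygous Dnmt3b knockout (3BKO), taken at day 3 or day 9, and all were cultured alike. Single cells were sorted into plates and read by a modified Smart-seq2 protocol, which counts reads without molecular identifiers, so every interval given below covers counting error only. Each knockout existed as more than 1 clone and EBs were pooled, but clones and cultures cannot be told from the labels. Genotype and day together made 6 groups, each taken as 1 sample, and no difference between groups has a replicate check. Each group was split over library batch 1 and batch 2, which gave 12 libraries of 21 to 61 kept cells. A kept cell had at least 50000 reads, 2000 detected genes and at most 50% mitochondrial reads. The lowest kept cell had 54720 reads and the best covered cell that fell below the limit had 44123. The libraries held 8071118 to 22867811 reads.

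The targeted gene went against the labels in batch 2 of day 3. Dnmt3a had 25.8 CPM (read counts scaled to the same total in every library) in the batch 1 library labelled 3AKO, 334.5 in the batch 2 library labelled 3AKO and 12.8 in the batch 2 library labelled 3BKO. At day 9 it had 165.5 CPM in WT and 25.2 in 3AKO, and Dnmt3b had 166.5 in WT and 16.4 in 3BKO. Day 3 mutant libraries are therefore called by their labels, enter no contrast of genotypes or days, and were left out in 1 of the alternatives for the co-variation. They do enter the comparison of the library batches.

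Many genes of this symbol range encode C2H2 zinc finger proteins with a KRAB domain. In such proteins the array of zinc fingers reads a DNA sequence, often within a retrotransposon, and the KRAB domain recruits Trim28 (KAP1), which brings the histone H3 lysine 9 methyltransferase Setdb1 and heterochromatin proteins and favours DNA methylation at the bound element. The genes expanded by tandem duplication and lie in clusters of near copies, and embryonic stem cells are a classical setting for their study.

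The members lay in 24 runs along the genome (GENCODE vM21, GRCm38), a run being members with at most 2 Mb between neighbours. The largest was on chromosome 4 and held 18 members within 2.34 Mb (chr4:145510759-147848366), in the order Zfp990, Zfp980, Zfp986, Zfp987, Zfp600, Zfp992, Zfp981, Zfp993, Zfp989, Rex2, Zfp991, Zfp988, Zfp978, Zfp982, Zfp985, Zfp979, Zfp984 and Zfp933. Runs of 10 members each lay on chromosome 2 (chr2:175372436-178078476) and chromosome 17 (chr17:21567008-22867134), and runs of 4 on chromosome 13 (chr13:66669928-67637791, with Zfp640, Zfp729a and Zfp729b) and chromosome 7 (chr7:42579783-43192109). Of the 18 genes on chromosome 4, 15 were detected in at least 20% of kept cells, as were 33 of the 53 members elsewhere.

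The sequences before the transcription start of the chromosome 4 genes are shown because those genes are the ones that varied together. RefSeq promoters (GRCm38.p6, 250 bases before to 50 after the start) were found for 60 members, 12 of them in the chromosome 4 run. Of these, 10 formed 1 group of similar promoters, joined at a limit of 55% identity set after the sequences had been seen. The 10 were Zfp980, Zfp987, Zfp600, Zfp981, Rex2, Zfp988, Zfp982, Zfp985, Zfp979 and Zfp984. Their 45 pairs were 56.7 to 99.3% identical, with a median of 78.7%, and the promoters of Rex2 and Zfp600 were the most alike. A promoter of this group had a median identity of 43.3 to 44.7% with the promoters outside the run. The longest stretches of letters held by at least 8 of the 10 promoters were 21 bases long. There were 2 of them, AAGAACTGGGAAGCTAATTAA and AGGAGTGGCTCTGAGGAACCA, in the same 8 promoters, the latter 30 to 67 bases before the start. Each was in 9 of 32851 promoters (0.0274%, both strands searched): 8 of members and that of Zfp534, a zinc finger gene of another symbol inside the same run. The lines give 80 bases around the former, 5′ to 3′ on the strand of the gene, with that stretch in capitals.
Zfp980 (chr4:145670520-145670599, + strand): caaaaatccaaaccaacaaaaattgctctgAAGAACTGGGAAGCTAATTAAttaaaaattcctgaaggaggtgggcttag
Zfp987 (chr4:146097125-146097204, + strand): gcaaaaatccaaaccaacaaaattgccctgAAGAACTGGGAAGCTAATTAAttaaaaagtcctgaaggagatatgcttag
Zfp600 (chr4:146156656-146156735, + strand): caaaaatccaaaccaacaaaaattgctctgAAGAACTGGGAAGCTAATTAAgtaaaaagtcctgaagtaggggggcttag
Rex2 (chr4:147021679-147021758, + strand): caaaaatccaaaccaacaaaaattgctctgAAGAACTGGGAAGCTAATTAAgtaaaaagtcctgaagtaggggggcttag
Zfp988 (chr4:147305454-147305533, + strand): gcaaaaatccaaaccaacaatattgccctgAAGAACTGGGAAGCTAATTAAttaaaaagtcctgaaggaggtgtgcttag
Zfp982 (chr4:147492230-147492309, + strand): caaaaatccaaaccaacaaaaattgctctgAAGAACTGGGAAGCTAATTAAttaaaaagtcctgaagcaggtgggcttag
Zfp985 (chr4:147553105-147553184, + strand): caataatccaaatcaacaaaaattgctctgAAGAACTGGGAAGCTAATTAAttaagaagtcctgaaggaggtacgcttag
Zfp979 (chr4:147642606-147642685, - strand): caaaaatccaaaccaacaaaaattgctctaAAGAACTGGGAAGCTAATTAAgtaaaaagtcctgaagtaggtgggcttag
Zfp534 (chr4:147702694-147702773, - strand): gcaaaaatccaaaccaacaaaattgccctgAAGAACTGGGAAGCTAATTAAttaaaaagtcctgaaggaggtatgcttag

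In the 8 members the stretch in capitals began 120 to 157 bases before the start. The promoters of Zfp981 and Zfp984 belonged to the group without holding either stretch. Outside the run's members, 2 promoters reached 70% identity with a promoter of this group: Zfp534 (89.3% with Zfp988) and Gm13212 (87% with Zfp984), both also on chromosome 4. The chromosome 4 promoters were poor in CpG sites, with a median of 5 in 300 bases (3 to 9), against a median of 8 in the other members and 7 in all promoters. Their median GC content was 42.5%, against 51.8% in the other members and 52.7% over all promoters.

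How much sequence the genes share limits how well their reads can be told apart. Reads that mapped to several places had been left out before counting. Of all windows of 75 bases in the annotated transcripts of a member, a median of 12.6% also occurred in another gene, and in 18 of 71 members this was 50% or more. For Rex2 it was 82.4%, with 73.1% shared with Zfp600 alone. For Zfp600 it was 74.5%, for Zfp990 11.6%, for Zfp985 4.36% and for Zfp982 4.93%. On chromosome 2, every window of Zfp967 and Zfp969 occurred in another gene. Zfp969 and, in the same run, Zfp966 and Zfp968 had no read in any cell, as had Zfp935 and Zfp957, so these genes could not be followed. Exons overlapped too: 15 members shared exon bases with another gene, 4 of them with a gene of the opposite strand.

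The members differed widely in level, and Zfp990 was the highest in both batches. Per kb of exon in WT at day 9, the highest was Zfp990 with 113.6 CPM per kb, followed by Zfp985 (50.9), Zfp958 on chromosome 8 (48), Zfp982 (45.9) and Zfp979 (45.8). These last 4 lay close together, and with 1 sample a group their order has no spread between samples to be set against. The order also differed between batches. In batch 1 alone Zfp990 (35.7 CPM per kb) was followed by Zfp958 (26.2), Zfp961 (24.5), Zfp938 (21.6) and Zfp982 (18.75), while Zfp985 had 11.9. In batch 2 alone Zfp990 (262.5) was followed by Zfp985 (125.6), Zfp979 (105.1), Zfp984 (103.3) and Zfp982 (97.8). Zfp990 had 397.3 CPM in these cells (390.7 to 403.9) and was read in 83.1% of them after each cell had been thinned to 50000 reads. Zfp958 had 113.4 CPM but was read in 41.6% of cells, and 24.9% of its reads came from 1 cell. Rex2 was close to the limit of detection, with 2.01 CPM and 3.37% of cells.

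The levels differed most between the library batches. Summed over the 71 genes, the median cell had 755 to 1370 CPM in the batch 1 libraries and 2891 to 5185 CPM in the batch 2 libraries, so all 6 batch 2 medians lay above all 6 batch 1 medians. In batch 1 the medians were 755 for WT, 1370 for label 3AKO and 967 for label 3BKO at day 3, and 1060, 1080 and 1189 at day 9. In batch 2 they were 2998, 2891 and 4672 at day 3, and 3259, 3614 and 5185 at day 9, in the same order. Cells of batch 2 were also more spread: the highest cell of a library had 8064 to 37325 CPM there and 1554 to 2860 CPM in batch 1.

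**Figure D1:**
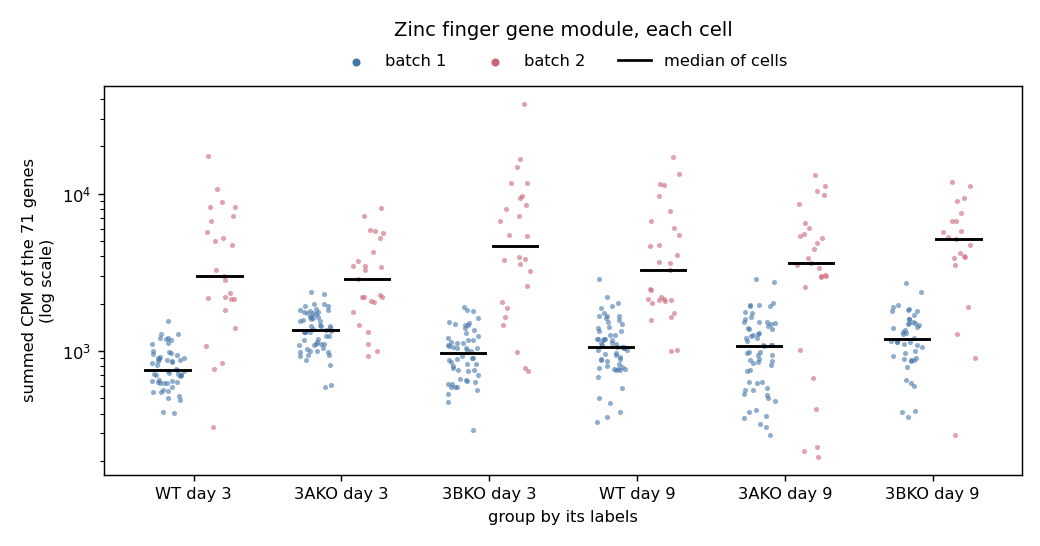
Summed CPM of the 71 genes in each kept cell (points, log scale) of the 12 libraries, with the median of each library as a bar. The batch 2 medians (2891 to 5185 CPM) lie above the batch 1 medians (755 to 1370 CPM) in all 6 groups, and the batch 2 cells are more spread.

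Each of the 6 plates held cells of both batches, so the batches were compared plate by plate. On the 2 plates with mutant cells of day 3, however, the batches carried different genotype labels (3AKO in one and 3BKO in the other), so that there the ratio also sets these labels against each other. Over the 48 detected members, the mean log2 ratio of batch 2 to batch 1, on log2(CPM + 1), had a median of 2.08. It was 2.61 for the 15 chromosome 4 members, 1.72 for the other 33, 0.21 for 188 detected zinc finger genes with other Zfp symbols and -0.28 for all 9734 detected genes. All 15 chromosome 4 members were higher in batch 2 on all 6 plates, as were 18 of the other 33 and 1170 of all 9734 detected genes. A log2 ratio of at least 1 on every plate was met by 23 of 48 members, 13 of them on chromosome 4, where 1.55% of all detected genes met it. None of the 48 was lower by that much on all plates, against 0.0514% of all genes. On the 4 plates with 1 genotype label, an alternative chosen after seeing the data, the median over members was 2.12, and 25 members, 13 of them on chromosome 4, had a ratio of at least 1 on each, against 2.29% of all genes, while 0 members and 0.247% of all genes were lower by as much.

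Zfp988 had the largest mean ratio among the members, 3.17 ± 0.33 (SD, n = 6 plates), and went from 10.2 to 33.6 CPM in the batch 1 libraries to 75.6 to 349.4 CPM in batch 2. Zfp990 went from 112.4 to 246.8 CPM up to 600.9 to 2744 CPM, a mean log2 ratio of 2.93 ± 0.41. For both genes the batch 1 and batch 2 libraries did not overlap, but the share of all genes of which this holds was not counted. Zfp600 (2.74 ± 0.96) and Zfp640 (2.75 ± 1.0996) had lower means and varied more between plates: Zfp640, a transcribed pseudogene on chromosome 13, had ratios of 1.22 on the WT day 9 plate and 3.86 on the WT day 3 plate. Zfp729b had 2.99 on the WT day 3 plate and 0.47 on the 3BKO day 9 plate. The exceptions were Zfp956 (-1.01 ± 0.76), Zfp954 (-0.67 ± 1.01) and Zfp940 (-0.42 ± 0.80), whose mean ratios were below 0.

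The members have unusually low GC content, and the batch difference moved with it across all genes. The transcripts of the 48 detected members had a median GC content of 39.002%, against 46.8% for the other Zfp genes and 50.4% for all detected genes. In the 10% of genes with the lowest GC content (28.8 to 42.3%), 930 genes that are no members had a median log2 batch ratio of 0.86, and in the 10% with the highest (57.7 to 73.8%) 966 such genes had -0.71. The 36 members in the lowest 10% had a median of 2.23, and 17 of them lay above the 95th percentile of the other genes there (2.25). In the next 10% (42.3 to 44.8%) the medians were 0.48 for 959 other genes and 2.11 for 6 members. Zfp956 and Zfp954, the members with the lowest ratios, had the highest GC content, 54.5 and 52.3%. The cells of batch 2 also had more mitochondrial reads, with library medians of 9.09 to 13.5% against 3.58 to 6.31% in batch 1, and a lower read-weighted GC content of their other genes, with medians of 48.6 to 50.1% against 50.7 to 51.1%. The part of these in the batch difference was not tested.

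**Figure D2:**
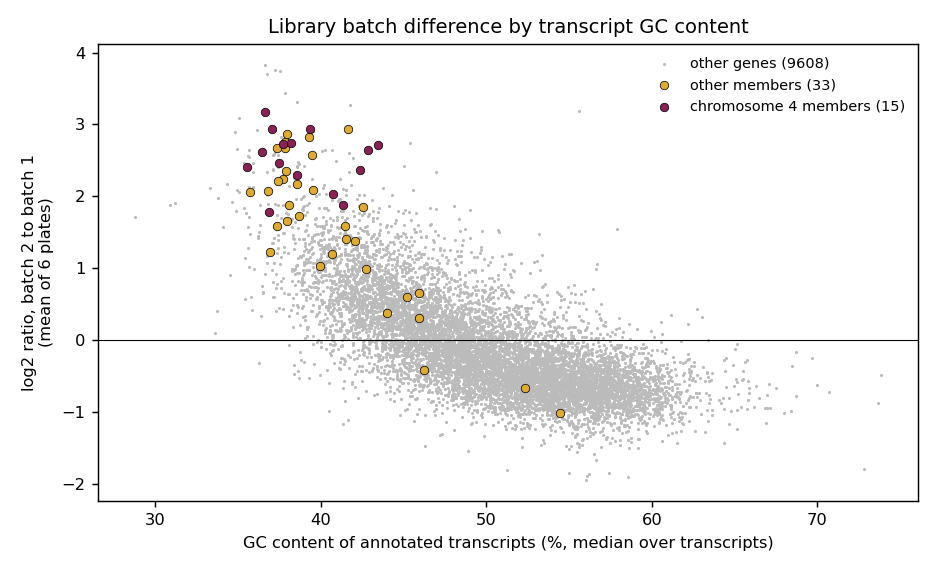
Mean log2 ratio of batch 2 to batch 1 over 6 plates (vertical axis) against the median GC content of the annotated transcripts (horizontal axis) for each detected gene with a position. The ratio falls from a median of 0.86 in the lowest 10% of GC content to -0.71 in the highest, and the chromosome 4 members (15 points, 1.78 to 3.17) sit at the upper edge.

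Across the cells of a library, pairs of chromosome 4 members rose and fell together, and pairs of the other members hardly did. Spearman's rho was computed for each pair of genes over the CPM of the cells of 1 library, which share a batch and a plate, and averaged over pairs. For the 15 chromosome 4 members the average was 0.349 over the 12 libraries and between 0.197 and 0.665 in each. For the 33 other members it was 0.0385 (-0.00470 to 0.115), for 188 other Zfp genes 0.0198 and for all 9734 detected genes 0.0159 (0.00609 to 0.0577). In each library the chromosome 4 value was the highest of the 4. All 105 pairs of chromosome 4 members had a mean rho above 0, with a range of 0.0844 to 0.623. Over all 1128 pairs of members the mean was 0.0840, and 76 of the 100 highest pairs were pairs within chromosome 4. As sums, however, the other members did move with the chromosome 4 members. The rho of the 2 sums was 0.405 on average, 0.0828 to 0.555 in batch 1 and 0.561 to 0.862 in batch 2. For the summed other Zfp genes it was 0.0766 to 0.266 in batch 1 and 0.442 to 0.744 in batch 2.

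**Figure D3:**
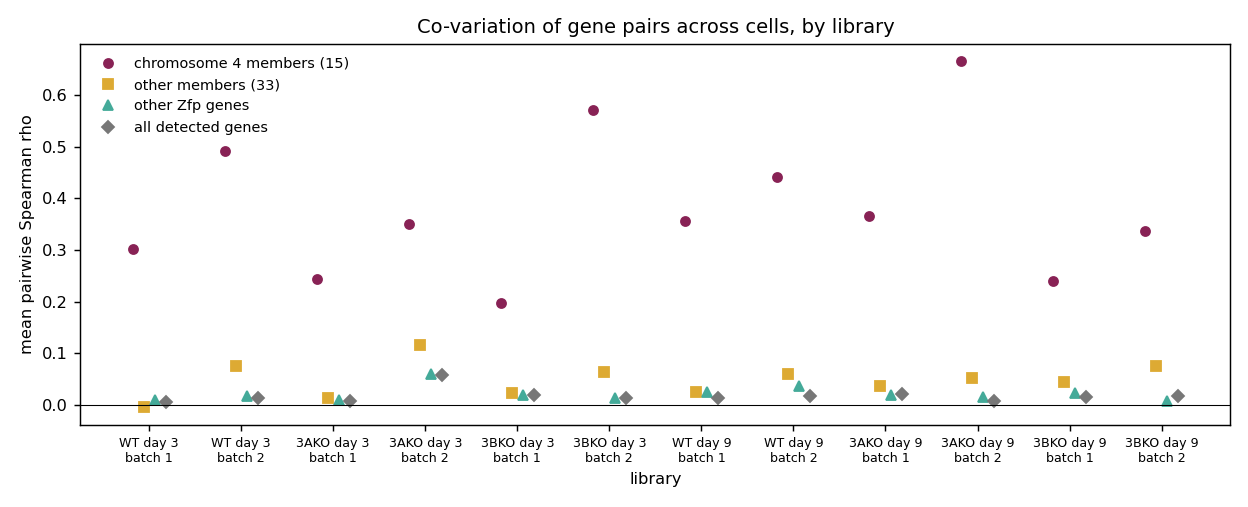
Mean pairwise Spearman rho within each of the 12 libraries for 4 sets of genes. The chromosome 4 members lie at 0.197 to 0.665 and above the other members (-0.00470 to 0.115), the other Zfp genes and all detected genes in every library.

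The co-variation was larger in batch 2 (0.337 to 0.665 in its 6 libraries) than in most of batch 1 (0.197 to 0.366). In batch 2 the summed CPM of the chromosome 4 genes also moved with properties of the cell: rho with total reads was 0.330 to 0.692, with the mitochondrial share 0.548 to 0.856, and with the GC content of the other genes' reads -0.834 to -0.549. In batch 1 these were weaker and of both signs for reads (-0.262 to 0.0779) and GC content (-0.365 to 0.0383), and 0.0626 to 0.431 for the mitochondrial share. With ranks adjusted for reads, detected genes, mitochondrial share and GC content together, the mean for chromosome 4 pairs was 0.280 (0.145 to 0.589), against 0.0120 for the other members. Leaving out the 4 day 3 libraries with mutant labels gave 0.375.

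The 2 closest pairs were Zfp988 with Zfp990 (rho 0.623; 0.576 in batch 1 and 0.726 in batch 2) and Zfp984 with Zfp990 (0.572; 0.527 and 0.669). The genes of these pairs lie 1766.5 and 2214.8 kb apart within the run. Pairs more than 1000 kb apart had a mean of 0.383 (38 pairs) and pairs within 250 kb one of 0.340 (21 pairs). Since near copies can exchange reads, pairs were divided by whether their transcripts share any window of 75 bases: the 37 that do had a mean of 0.393 and the 68 that do not 0.325. Zfp990 shares such windows with Zfp988 and with Zfp984, its partners in the closest pairs. The pairs that share no such window ran from 0.0844 to 0.511, the highest being Zfp982 with Zfp990, picked after its value was seen. The part of exchanged reads was not tested.

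**Figure D4:**
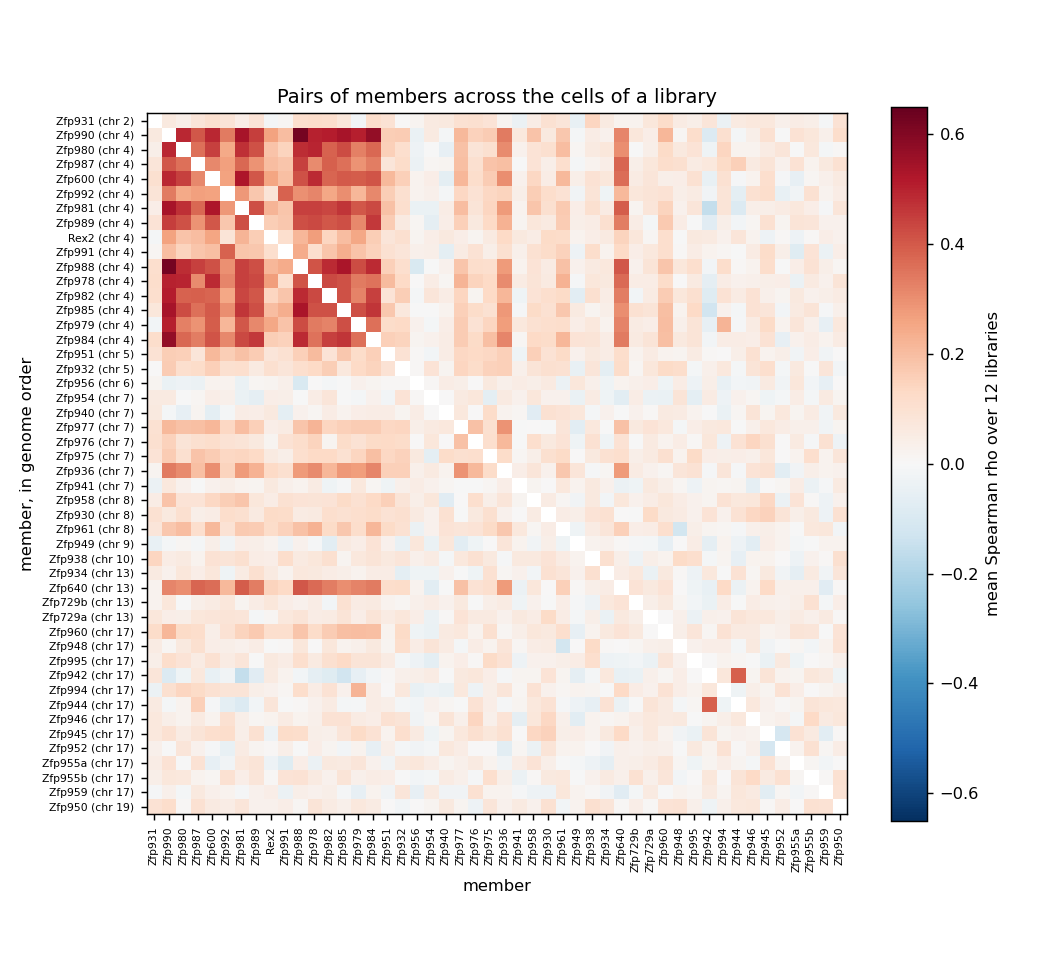
Mean Spearman rho over the 12 libraries for each pair of the 48 detected members, in genome order (colour scale from -0.65 to 0.65; the diagonal is blank). The block of chromosome 4 genes stands out with 0.0844 to 0.623, Rex2 and Zfp991 are its weakest members, and Zfp640 on chromosome 13 and Zfp936 on chromosome 7 run along with it.

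Each gene was then set against the summed CPM of the chromosome 4 members, without itself. Zfp990 was closest (rho 0.722), then Zfp988 (0.666), Zfp985 (0.612), Zfp981 (0.599) and Zfp984 (0.576), each above 0 in 12 of 12 libraries. Zfp600 had 0.555. Within the run, Zfp992 (0.374), Rex2 (0.273) and Zfp991 (0.236) were lowest. Rex2 is nearly unread in batch 1 (0.175 to 0.857 CPM), where its rho was 0.136, against 0.571 in batch 2. Outside the run, Zfp640 (0.384, above 0 in 12 of 12 libraries) and Zfp936 on chromosome 7 (0.350, 12 of 12) stood near the run's lower members. Zfp729a (0.0839) and Zfp729b (0.0676) did not, and Zfp942 on chromosome 17 had the lowest value (-0.113, above 0 in 2 of 12 libraries). Lower values were found in other runs: the 7 detected genes of the chromosome 17 run had a mean pairwise rho of 0.0402 and the 4 of the chromosome 7 run 0.171. One pair of the chromosome 17 run, picked after its value was seen, was close (Zfp942 with Zfp944, 0.387), and its genes share windows of 75 bases.

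Among detected chromosome 4 members, the 10 with the shared promoter had a mean pairwise rho of 0.370 (45 pairs). The other 5, Zfp978, Zfp989, Zfp990, Zfp991 and Zfp992, had no matched promoter, so whether they hold the shared one is not known. Their mean was 0.308 (10 pairs), and pairs of 1 gene of each kind had 0.338 (50 pairs). Genes with and without the shared promoter were thus not compared. The ranges of these 3 sets overlapped, from 0.0844 to 0.623 in all.

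Genes outside the family were ranked by their rho with the summed CPM of all 71 members over 9686 detected genes, whose median was 0.00349 and 95th percentile 0.146. The first was Zfp534 (0.613), and Gm13212 had rank 5 (0.468), the only genes outside the members whose promoters reached 70% identity with the shared promoter. The others among the first 10 were Gm21411 (0.585), Gm13147 (0.514), Gm6445 (0.504), 2410141K09Rik (0.446), Gm17771 (0.441), Gm8935 (0.433), Gm13230 (0.426) and Lypla1 (0.420). Of the 10, 4, namely Zfp534, Gm21411, Gm13147 and Gm13212, lie inside the chromosome 4 run, and 8 share windows of 75 bases with 2 to 13 of its members. The exceptions are 2410141K09Rik and Lypla1. The former shares windows with 1 member, which is outside that run, and so is not free of the sum. It lies at chr13:66418114-66441118, shortly before the chromosome 13 run of members. Lypla1 on chromosome 1 encodes an acyl-protein thioesterase and shares no window with any member. Each of the 10 was above 0 in 12 of 12 libraries. At the other end were Pdap1 (-0.328), Fabp5 (-0.317, a fatty acid-binding protein), Prelid1 (-0.311), Pebp1 (-0.311, an inhibitor of Raf kinase) and Prdx2 (-0.303, a peroxiredoxin).

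The silencing partners of KRAB zinc finger proteins moved little with the chromosome 4 genes. The 21 listed cofactors, of which 20 were detected in at least 20% of cells, had a summed level with a mean rho of 0.152 (-0.0319 to 0.342), and the median of the single genes was 0.0229, against 0.00380 for all detected genes. Tasor (0.289), a subunit of the HUSH silencing complex, and Morc3 (0.231), a chromatin ATPase, were the highest. Among 5 other KRAB zinc finger genes, Zfp57, which keeps methylation at imprinted regions, had 0.350. The 13 naive pluripotency genes had a summed rho of 0.243, above 0 in 10 of 12 libraries (-0.582 to 0.581). The 12 of them read in at least 20% of cells had a median rho of 0.195, with Zfp42 (Rex1) highest at 0.309. The lists for primed epiblast (-0.0439), ectoderm (-0.100), meso-endoderm (-0.0986), extra-embryonic endoderm (-0.0766) and trophoblast (-0.190) were below 0, the last in 12 of 12 libraries. Few of these genes were read in at least 20% of cells: 4 of 11 for ectoderm, 1 of 13 for meso-endoderm and 1 of 7 for each of the last 2 lists. The 6 of 8 primed epiblast genes so detected had a median rho of 0.0518. The 2-cell-like list had no read in WT at day 3 and a mean of 877 CPM in 3BKO at day 9, and its rho was 0.106 over the 6 libraries with a read of it, above 0 in 4, with 0 of 16 genes read in 20% of cells.

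Loss of either methyltransferase was compared with WT at day 9, library batch by library batch, since batch 2 gave 34.3% of the reads of WT, 41.5% of 3AKO and 53.7% of 3BKO. In 3AKO the summed members had 2845 CPM (2824 to 2866), against 2672 (2655 to 2689) in WT. Their log2 ratio was 0.09 over both batches, but -0.04 in batch 1 and -0.09 in batch 2. The median over the 46 members past the detection limit was -0.15, against -0.10 over 9201 genes. A gene was called where its log2 ratio was at least 1 in size, with 1 sign, in both batches. It also had to be read in at least 20% of cells of the mutant or of WT, within batch 1 and within batch 2. By that rule 1 member was higher and 2 were lower, while 1.07% of all genes tested were higher and 1.59% lower.

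The member called higher in 3AKO was Zfp992, with 21.4 CPM in batch 1 and 69.1 in batch 2, against 9.75 and 25.7 in WT (log2 ratios of 1.06 and 1.39). Zfp729b was lower, with 3.37 and 5.55 CPM against 12.2 and 85.4 (-1.59 and -3.72), and it shares exon bases with another gene model. Zfp948 on chromosome 17 was lower as well, with 11.7 and 41.2 CPM against 31.97 and 187.9 (-1.38 and -2.16). Zfp992 was read in 61.4% of thinned 3AKO cells and in 28.1% of thinned WT cells. With a stricter cell filter, however, 0 members were called higher, and the share of all genes called so was not counted.

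In 3BKO the summed members had 3772 CPM (3751 to 3794), a log2 ratio to WT of 0.50 over both batches, but 0.15 in batch 1 and 0.08 in batch 2. The pooled value was larger than that of either batch, and batch 2 gave a larger share of the reads in 3BKO than in WT. The median over 45 members was 0.46 pooled, 0.15 in batch 1 and 0.09 in batch 2, against -0.08 over 9235 genes. By the rule 3 members were higher and 1 lower, where 2.86% of all genes were higher and 4.98% lower. Zfp977 had 28.99 and 221.4 CPM against 12.2 and 78.2 in WT (log2 ratios of 1.18 and 1.49). Zfp936, in the same run on chromosome 7, had 52.003 and 472.6 against 23.5 and 204.96 (1.11 and 1.20). Zfp940 had 55.1 and 22.5 against 25.7 and 8.53 (1.07 and 1.30). In batch 2 of 3BKO, 1 cell gave 62.7% of the Zfp977 reads, 36.7% of those of Zfp936 and 72.4% of those of Zfp940. With each cell thinned to 50000 reads, 0 members were called higher in 3BKO, and the share of all genes called so was not counted.

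Zfp948 was the member called lower, with 14.5 and 0.985 CPM in 3BKO (-1.09 and -6.57), and was thus lower in both mutants, which were compared with the same WT cells. In batch 2 of 3BKO no thinned cell had a Zfp948 read, where 51.7% of WT cells had one. The 5 genes added by name did not share a direction in 3BKO: Zfp600 had log2 ratios of 0.05 and -1.28 in the 2 batches, Zfp640 0.06 and 1.59, Zfp729a -1.55 and 1.62, and Zfp729b -0.50 and -2.74. Rex2 did not pass the detection limit. Of the 45 members, 22 had the same sign in both batches, against 66.2% of all genes.

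From day 3 to day 9 in WT, 4 of 48 members were called higher and 0 lower, where 5.25% of all 10162 genes were higher and 2.19% lower. These counts come from a rule of size with no test. Zfp944 went from 3.73 to 11.5 CPM in batch 1 and from 21.4 to 125.9 in batch 2 (log2 ratios of 1.40 and 2.50). Zfp938, on chromosome 10, went from 13.96 to 45.9 and from 29.1 to 110.6 (1.65 and 1.89). Zfp975 had 1.28 and 1.82, and Zfp729b 1.35 and 1.07. None of the 4 is on chromosome 4. There, all 14 members past the limit were lower at day 9 with the batches pooled, with a median of -0.66, as were 3946 of all 10162 genes. In batch 1 alone, however, 10 of the 14 were higher, with a median of 0.06. In batch 2 alone 1 was higher, with a median of -0.53. The 48 members had a median of -0.0056 with the batches pooled, of 0.38 in batch 1 and of -0.21 in batch 2, and over all genes it was 0.19, 0.16 and 0.22. The members thus lay above genes in general in batch 1 and below them in batch 2. With TMM scaling the median over all genes was 0.03. Batch 2 gave 42.9% of the WT reads at day 3 and 34.3% at day 9. Zfp640 fell by 2.20 on the log2 scale in batch 2 and had 0.44 in batch 1, and Zfp600 had 0.04 in batch 1 and -0.89 in batch 2.

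**Figure D5:**
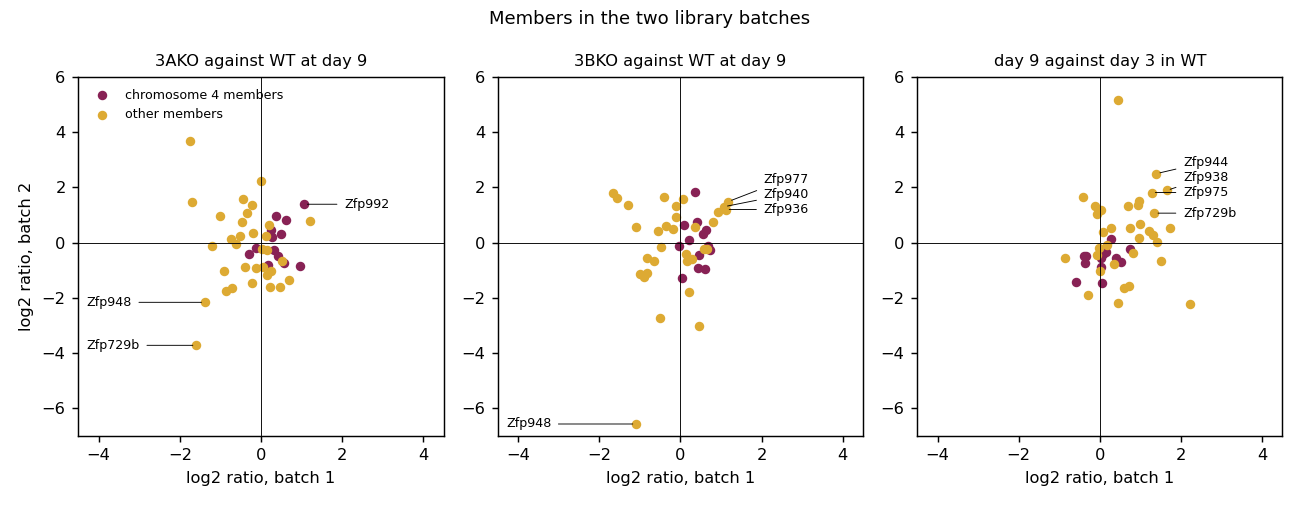
Log2 ratios of the members past the detection limit in batch 1 (horizontal axis) and batch 2 (vertical axis) for the 3 contrasts, with the called genes named. Many members lie in quadrants of opposite sign, and ratios in batch 2 reach further from 0 (-6.57 for Zfp948 in 3BKO).

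Among the KRAB cofactors, 0 of 21 were called in either mutant by this rule of size. Of all genes, 1.07% were higher and 1.59% lower in 3AKO, and 2.86% and 4.98% in 3BKO. At day 9, with the batches pooled, the level of Trim28 was 477.7 CPM for WT, 470.4 for 3AKO and 624.02 for 3BKO. That of Setdb1 was 35.955, 24.02 and 25.6 CPM. Batch 2 gave 34.3, 41.5 and 53.7% of the reads of these groups, so the pooled levels also carry the batch. Between days in WT, 2 of the 21 were called higher and 1 lower, where 5.25% of all genes were higher and 2.19% lower. With the batches pooled, Atf7ip, a partner of Setdb1, went from 52.7 to 135.3 CPM and Chd3 from 1.83 to 7.27. Uhrf1, which keeps DNA methylation through replication, went from 262.9 to 91.3. These 3 were past the limit in both batches.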

How the data were processed

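Whole-number read counts per gene were deposited by the authors, with no normalization. Per the labels and the study's methods, single-end reads were checked with FastQC 0.11.2, trimmed with Trim Galore 0.5.0, aligned to GRCm38 with STAR 2.7.1a and counted over GENCODE exons by gene name with featureCounts 1.6.1, leaving out reads with several places. Whether strand was used is not given in the sources used here. Of the table's columns, 26 (empty and mini-bulk wells) belong to no sample and were not used.

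The members, gene lists and alternatives were chosen with earlier results of these data known. Counts were summed over kept cells, scaled to CPM and compared as log2(CPM + 1), which understates changes of low genes. Genes were named by a fixed rule: per contrast up to 6 called on each side, the 5 added symbols, the 5 highest per kb, the 2 closest pairs, and the 10 genes most and 5 least alike. Positions came from GENCODE vM21. Alternatives were each batch alone, other cell filters, detection limits, pseudocounts and scalings, thinned cells, members with no shared exon and, added after seeing the data, equal batch weights, the plates with 1 genotype label, adjusted ranks and members with few shared windows. Intervals are exact Poisson at 95%. With 1 sample a group, no test was run. Doublets were not called, since 1 cell was sorted per well. Code was tested on simulated data. Tools were Python 3.11.15, scipy 1.17.1, edgeR 4.0.16 and DESeq2 1.42.0 (both for alternative scalings only). Fam208a is listed as Tasor.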

Additional observations from a re-analysis of the deposited data

Results flagged for a closer look

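Zfp960 was flagged because its log2 ratio had opposite signs in the 2 mutants. At day 9, Zfp960 on chromosome 17 was lower than WT in both library batches of 3AKO (log2 ratios of -0.39 and -0.89) and higher in both batches of 3BKO (0.37 and 0.56), a difference between the mutants of 0.75 in batch 1, 1.45 in batch 2 and 1.54 over both batches. Batch 2 gave 41.5% of the 3AKO and 53.7% of the 3BKO reads, and the pooled value exceeds that of either batch. Both mutants were set against the same WT cells. No test of this difference was made, as each group was 1 sample. Of the windows of 75 bases of Zfp960, 75.3% occur in another gene, mostly Zfp97.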

How the results depend on the processing

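A ratio was taken as unmoved within 1 SD of its batch 1 and batch 2 values, a rho within 1 SD over the 12 libraries, and a count within 1.5 times. By this tolerance 147 of 204 alternative values were unmoved. Of 91 alternative log2 ratios, 18 had another sign than the reported one, 8 of them within the tolerance. The mean rho of the chromosome 4 members ran from 0.271 with thinned cells to 0.482 in batch 2 alone, within the SD of 0.140. That of all members was 0.140 in batch 2 alone, 0.162 without the cell filter and 0.186 for genes read in 40% of cells. The contrasts turned on the batches, and no spread between cultures was available to judge them. For the counts of members called under an alternative, the share of all genes called under the same setting was not counted. Whether such a count is large for these genes is therefore not known. In a single batch a call also needed no agreement with the other batch.

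For 3AKO, the members' median was 0.020 in batch 1 alone. The summed members' log2 ratio was -0.036 in batch 1 alone, -0.085 in batch 2 alone, -0.11 as the mean of single-cell CPM, -0.086 with thinned cells and -0.060 with both batches weighted equally (chosen after seeing the data), and 0.18 with TMM factors, 0.17 with median-ratio size factors and 0.16 over members sharing no exon base. Members higher numbered 0 with the stricter cell filter (more reads and genes, fewer mitochondrial reads), 2 in batch 1 alone, 8 in batch 2 alone and 0 with a pseudocount of 10 CPM. Members lower numbered 6, 13 and 0 under the last 3 of these, and 1 with detection in 40% of cells or without shared exon bases.

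For 3BKO, the median was 0.12 in batch 1 alone, 0.086 in batch 2 alone, 0.14 as the mean of single-cell CPM, 0.16 with thinned cells, 0.52 with TMM factors, 0.57 with median-ratio size factors, 0.34 with a pseudocount of 10 CPM, 0.37 with detection in 40% of cells and 0.12 with equal batch weights. The batch 1 median here is over members past the detection limit in that batch, whatever their detection in batch 2. The summed ratio was 0.15 and 0.081 in the single batches, 0.13 both as the mean of single-cell CPM and with thinned cells, 0.56 with TMM factors, 0.61 with median-ratio size factors, 0.56 without shared exon bases and 0.12 with equal batch weights. Members higher, again with no share of all genes beside them, numbered 14 in batch 2 alone and 0 with thinned cells or a pseudocount of 10 CPM. Members lower numbered 6 in batch 1 alone, 10 in batch 2 alone, 2 with a pseudocount of 0.1 CPM and 0 with one of 10 CPM.

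Between days in WT, the summed ratio was 0.39 with the stricter cell filter, 0.48 in batch 1 alone, 0.23 as the mean of single-cell CPM, 0.25 with thinned cells and 0.22 with equal batch weights. The median, with an SD of 0.42 between batches, was 0.32 with the stricter filter, 0.41 in batch 1 alone, 0.23 as the mean of single-cell CPM, 0.16 with thinned cells, 0.0073 with a pseudocount of 10 CPM, 0.15 with detection in 10% of cells and 0.083 with equal batch weights. Members higher numbered 8 with the stricter filter, 11 in batch 1 alone, 15 in batch 2 alone, 1 with a pseudocount of 10 CPM, 8 with detection in 10% of cells and 2 in 40%. Members lower numbered 9 in batch 2 alone and 1 with a pseudocount of 0.1 CPM. The causes were not tested.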
